A study of Mus musculus with 4 samples.

Results

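The miRNA encoded inside the Hox gene clusters were followed in small RNA libraries of mouse cortical neurons. The rows for miR-10a, miR-10b, miR-196a, miR-196b and miR-615 were taken from the count table of each library by name, which gave 11 mature arms of 1966 listed miRNA. Of these, 7 arms were of primary interest, namely mmu-miR-10a-5p, mmu-miR-10a-3p, mmu-miR-10b-5p, mmu-miR-10b-3p, mmu-miR-196a-5p, mmu-miR-196b-5p and mmu-miR-615-3p. The other arms were mmu-miR-196a-1-3p, mmu-miR-196a-2-3p, mmu-miR-196b-3p and mmu-miR-615-5p. Of the 11 arms, 4 had at least 1 read in any library, and the other 7 were at 0 in all 4 libraries. Over the whole list, 1131 of 1966 miRNA had at least 1 read in any library.

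Hox genes encode transcription factors that give cells their position along the head-to-tail axis. They lie in clusters in which genes at one end are active further forward than genes at the other end, and the miRNA between them are transcribed in related domains of the trunk, spinal cord and hindbrain. A miRNA acts mainly through its seed, the bases near its 5′ end that pair with target mRNA, and miR-10 and miR-196 are known to target mRNA of Hox genes. The cerebral cortex forms in front of the Hox domain, and the question here was how much of them the cortical cultures held and whether the level differed with genotype.

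Cortices were dissected at embryonic day E16.5 according to the labels, dissociated, and kept as neurons for 5 days in vitro in serum-free medium. WT neurons were compared with TgAD neurons, which carry the transgenes APPswe, whose mouse/human APP bears the Swedish familial mutations, and PSEN1dE9, whose human presenilin 1 lacks an exon. Both are driven by a prion promoter of the mouse, active mostly in brain and spinal cord neurons. Neither genotype was treated, and each was represented by 2 libraries. The neurons of each embryo were cultured separately according to the study's methods. The labels do not tie a library to an embryo, so the p-values measure the spread between these libraries.

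Replicates 1 and 2 held 2070204 and 2752599 reads for WT, and 2758525 and 4811010 reads for TgAD. Before the levels are given, a conflict in the labels has to be stated. A second deposited table, of normalized values, holds columns named for the same 4 libraries, and the whole reads behind it could be recovered. Its first WT column held the reads of the count table labelled TgAD replicate 1 for 674 of 674 miRNA, its second WT column held those of WT replicate 1, and its first TgAD column held those of TgAD replicate 2. No column held the reads of WT replicate 2, and the second TgAD column, with 1926952 reads, matched none of the count tables. One library is therefore called TgAD in one table and WT in the other, and the comparisons of TgAD with WT below are also given without the library labelled TgAD replicate 1.

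The cultures were checked against miRNA known from particular cell types, and calls in TgAD against WT (log2 fold change over 0.6 in size, adjusted p under 0.1, edgeR) are to be read against 33.1% of all tested miRNA, or 26.7% without TgAD replicate 1. Of 10 brain and neuron enriched miRNA, 7 were abundant enough to test, of which 3 were called higher and 1 lower in TgAD, and 1 higher and 3 lower without TgAD replicate 1. However, miR-9-5p was at 0 in all 4 libraries and miR-124-3p, the most typical neuronal miRNA, had only 1, 2, 7 and 4 reads (WT 1, WT 2, TgAD 1 and TgAD 2, the order used throughout). The 10 miRNA summed to 26656 and 40400 CPM in WT and 90350 and 64896 CPM in TgAD. CPM are counts per 1000000, with library sizes scaled by TMM. Most of this was miR-128-3p, with 43009, 96201, 230643 and 240174 reads, and 2 of the 10 were at 0 in all libraries. The endothelial miR-126a-3p and the hepatocyte miR-122-5p were at 0 in all libraries. The red cell miRNA miR-451a had 3076, 3873, 2625 and 2595 reads, and fell in TgAD against WT, with a log2 fold change of -0.72 (adjusted p = 0.0707, edgeR) and of -1.13 without TgAD replicate 1 (adjusted p = 0.0285, edgeR). Of the other erythroid miRNA, none at 0 in all libraries, miR-144-3p had 2, 3, 0 and 2 reads and miR-144-5p 1, 0, 1 and 2. The summed level of the 3 erythroid miRNA, nearly all from miR-451a, was 1310 and 1331 CPM in WT and 957.0 and 646.3 CPM in TgAD. That of the 5 epithelial miRNA, none at 0, was 24.3 and 21.3 CPM in WT and 12.0 and 9.95 CPM in TgAD, and 1 of 3 tested was called lower with and without TgAD replicate 1, a share near that of all tested miRNA. The mesenchymal miR-143-3p had 2067, 2051, 2208 and 2981 reads, far more than any Hox cluster miRNA. By contrast, miR-145a-5p had 50, 40, 60 and 60 reads, miR-214-3p had 6, 1, 7 and 6, and miR-199a-3p was at 0 in all libraries. Outside the list, miR-199b-5p had 51, 55, 52 and 47 reads, and miR-199b-3p was at 0 in all libraries. The 7 mesenchymal and smooth muscle miRNA, 1 of them at 0, summed to between 720.6 and 905.7 CPM, nearly all from miR-143-3p. The summed level of the 4 leukocyte miRNA lay between 10.6 and 16.2 CPM, and that of the 4 muscle miRNA between 2.55 and 4.46 CPM. How reads with several places were counted is not known, so a marker at or near 0 is not read as absent. In bulk libraries, fewer cells of a type and less RNA per cell cannot be told apart, and the part of such cells in the reads of the Hox cluster miRNA was not tested.

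The mature sequences of the members with a family relation or with reads are given first because they show which arms can be told apart by sequence and which share targets. Capitals mark the seed, bases 2 to 8 from the 5′ end, and the sequences are those of RefSeq.
miR-10a-5p: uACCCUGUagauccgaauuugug
miR-10b-5p: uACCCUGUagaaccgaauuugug
miR-196a-5p: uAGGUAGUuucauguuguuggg
miR-196b-5p: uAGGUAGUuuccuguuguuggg
miR-615-3p: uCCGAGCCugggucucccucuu
The 2 miR-10 arms share their seed and are identical at 22 of 23 bases, the substitution being U12A from miR-10a-5p to miR-10b-5p, counted from the 5′ end. The 2 miR-196 arms also share their seed, are identical at 21 of 22 bases and differ by A12C. No other listed miRNA with a sequence in the RefSeq table has the seed of miR-10, miR-196 or miR-615. Because reads were mapped without mismatch, a read that covers base 12 is assigned to only one member of each pair. The letters of the miR-196 seed do recur 1 base further in, at bases 3 to 9, in 9 listed miRNA, among them let-7i-5p and let-7g-5p.

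The closest relatives of miR-10 outside the Hox clusters are miR-99a, miR-99b and miR-100, shown for comparison because they belong to the same family but have another seed.
miR-99a-5p: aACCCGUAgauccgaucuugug
miR-99b-5p: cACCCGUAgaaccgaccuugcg
miR-100-5p: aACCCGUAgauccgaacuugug
The longest run that miR-10a-5p shares with miR-100-5p is 11 bases, with miR-99a-5p 10 bases and with miR-99b-5p 5 bases, so a read of full length belongs to one of them only.

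The hairpins lie in all 4 Hox clusters of GRCm38 (annotation GENCODE M21). Mir10a is in the Hoxb cluster at chr11:96317165-96317274 on the plus strand, 992 bp before Hoxb4 and 11043 bp after Hoxb5, in no transcript of another gene, and the mature miR-10a-5p takes chr11:96317186-96317208. Mir10b is in the Hoxd cluster at chr2:74726070-74726137 on the plus strand, inside intron 4 of the protein-coding transcript of Hoxd4 and intron 1 of that of Hoxd3, with miR-10b-5p at chr2:74726074-74726096. Both miR-10 genes thus lie at the Hox4 gene of their cluster. Mir615 is in the Hoxc cluster at chr15:103014910-103015001 on the plus strand, in intron 1 of Hoxc5, with miR-615-3p at chr15:103014969-103014990.

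The miR-196 hairpins lie nearer to the end of the clusters that is used in the rear of the body. Mir196a-1 is at chr11:96265164-96265265, between genes and 6191 bp before Hoxb9, and Mir196a-2 is at chr15:102973350-102973434, 1456 bp after Hoxc10 and 3004 bp before Hoxc9, in intron 1 of a long non-coding transcript of Hoxc5. Both are on the plus strand and give the same mature miR-196a-5p, so its reads have 2 possible origins. Mir196b is at chr6:52230081-52230165 on the minus strand, within Hoxa9, in exon 1 of 2 non-coding transcripts and in intron 1 of another, with miR-196b-5p at chr6:52230129-52230150.

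**Figure D1:**
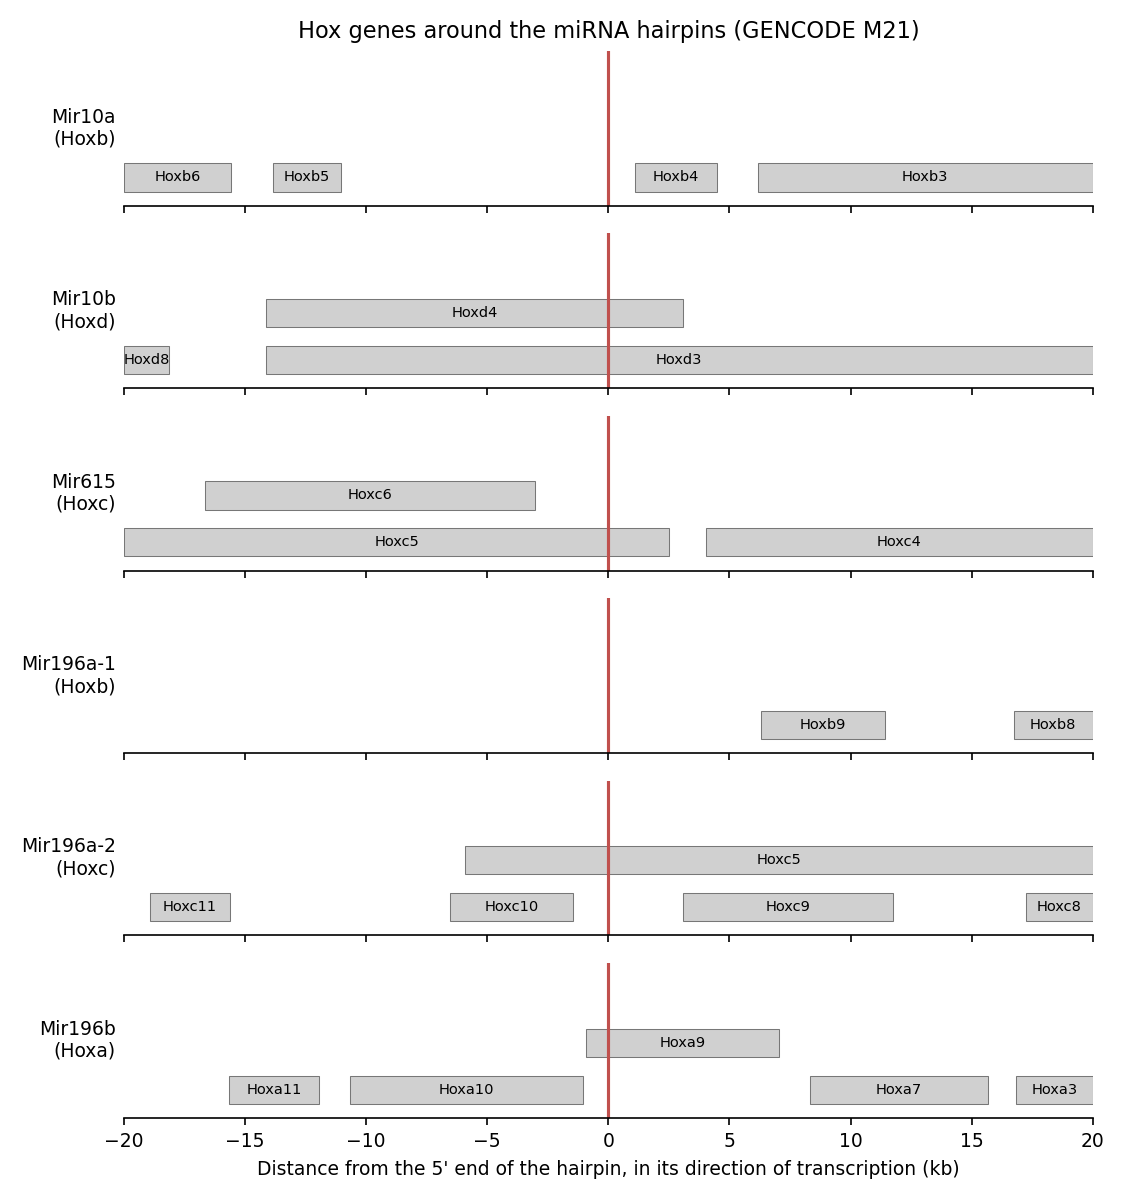
Hox genes around each of the 6 miRNA hairpins, in kb from the 5′ end of the hairpin in its direction of transcription. Gray bars are annotated genes, drawn over the union of their transcripts and clipped at the edges of each panel, and the red line is the hairpin, whose width is not to scale; Mir10a lies just before Hoxb4, and Mir10b, Mir615, Mir196b and Mir196a-2 fall inside the bar of a Hox gene.

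miR-10a-5p, which derives from the Hoxb cluster, was the most abundant Hox cluster miRNA in every library. It had 43, 64, 73 and 93 reads. Per 1000000 reads of the library (RPM), this was 20.8 in WT 1 (95% Wilson interval 15.4 to 28.0), 23.3 in WT 2 (18.2 to 29.7), 26.5 in TgAD 1 (21.05 to 33.3) and 19.3 in TgAD 2 (15.8 to 23.7). All 4 intervals overlap one another. These and the following intervals are binomial intervals on the reads of a single library, so they cover counting error only. Copies of the same molecule could not be told apart in the counts, and the study's methods name no molecular identifiers. The arms are 22 or 23 nucleotides long and a miRNA is read from end to end, so levels of different arms were compared without a correction for length.

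miR-10b-5p, its Hoxd paralog, had 8, 40, 11 and 24 reads. This was 3.86 RPM in WT 1 (1.96 to 7.63), 14.5 in WT 2 (10.7 to 19.8), 3.99 in TgAD 1 (2.23 to 7.14) and 4.99 in TgAD 2 (3.35 to 7.42). WT 2 stood above the other 3 libraries, and its interval did not overlap theirs. The other 3 intervals overlapped one another, so within WT the spread was larger than the counting error that these intervals cover.

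The remaining Hox cluster miRNA were at or near the limit of detection, taken as 3 reads in a library. miR-196b-5p, from the Hoxa cluster, had 2 and 4 reads in WT and 0 in both TgAD libraries. miR-615-3p, from the Hoxc cluster, had 2, 3, 3 and 0 reads. Since 1 to 4 reads or none were counted in every library, no fold change is given for these arms. miR-196a-5p, which is encoded at 2 loci, had no read in any library. Neither had either 3p arm of miR-196a, miR-196b-3p, miR-10a-3p, miR-10b-3p and miR-615-5p. With 3 reads as the limit, a count of 0 allows up to 1.45 RPM in the smallest library and 0.624 in the largest. Over the 12392338 reads of all 4 libraries it allows 0.242. For miR-196a-5p, with 2 loci, such limits hold only if reads with several places were counted, which is not known. The 95% Wilson interval of a 0, used below for overlaps, reaches 1.86 and 0.798 RPM in the smallest and the largest library.

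The order of the levels was miR-10a-5p over miR-10b-5p in 4 of 4 libraries, and then miR-615-3p and miR-196b-5p, whose own order changed between libraries. The intervals of miR-10a-5p and miR-10b-5p were separate in WT 1, TgAD 1 and TgAD 2 and overlapped in WT 2. Those of miR-10b-5p and miR-615-3p overlapped in WT 1 and TgAD 1, and those of miR-615-3p and miR-196b-5p overlapped in every library. In sum, the Hox cluster miRNA had 55, 111, 87 and 117 reads, or 26.6, 40.3, 31.5 and 24.3 RPM. Of all 370 reads, 96.2% were from the 5p arms of miR-10a and miR-10b and 73.8% from miR-10a-5p alone.

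**Figure D2:**
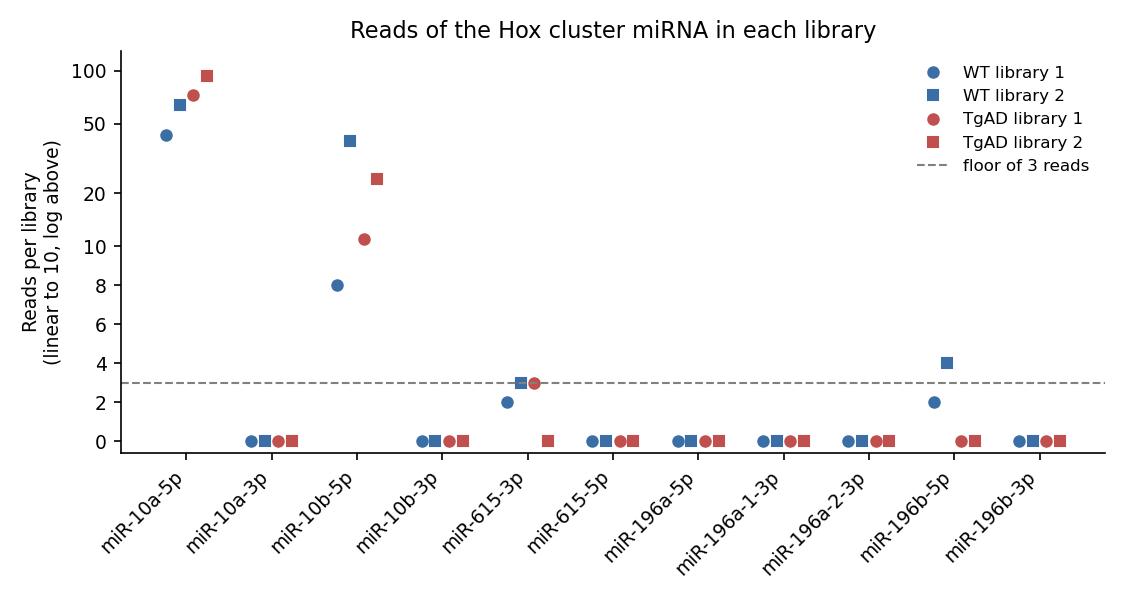
Reads of each of the 11 Hox cluster arms in each library, 1 point per library, on an axis that is linear to 10 reads and logarithmic above, with a dashed line at 3 reads. miR-10a-5p lies between 43 and 93 reads and miR-10b-5p between 8 and 40, miR-196b-5p and miR-615-3p have at most 4, and the other 7 arms are at 0.

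Set among all 1966 listed miRNA, many of which had no read, miR-10a-5p ranked between 315 and 340, above 82.5% to 84.0% of the list in each library. miR-10b-5p ranked between 367 and 487. Among the 496 miRNA with enough reads to be tested, the 273 reads of miR-10a-5p over the 4 libraries compared with a median of 822.5, and 33.9% had fewer. Only 14.7% of the tested miRNA had fewer reads than the 83 of miR-10b-5p. The miR-10 arms were thus measured, but in the lower part of the tested range.

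**Figure D3:**
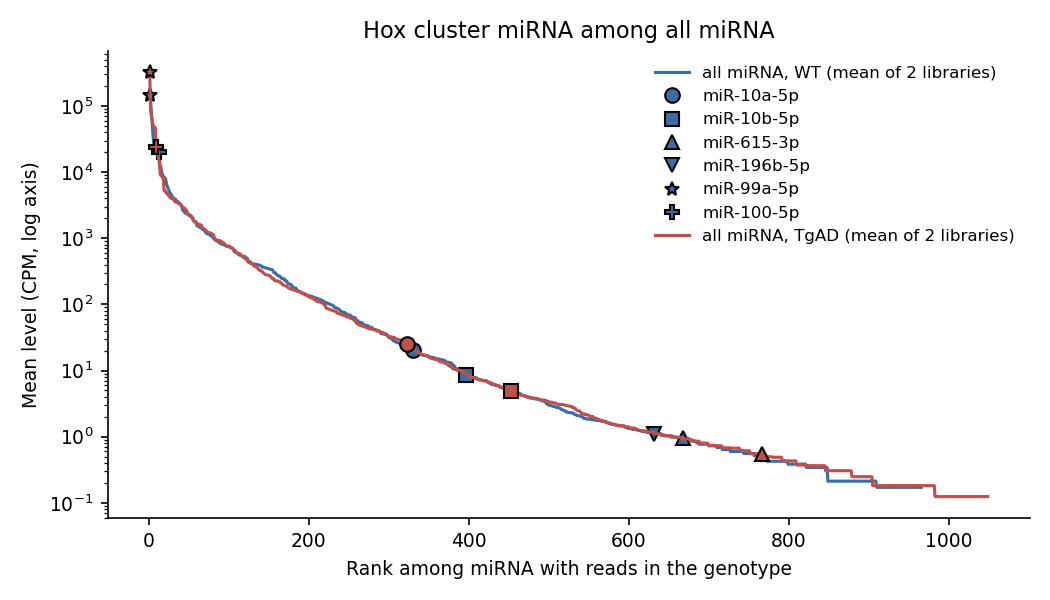
Mean CPM of the 2 libraries of each genotype (log axis) against rank among the miRNA with reads in that genotype, WT in blue and TgAD in red, with symbols on the Hox cluster arms and on miR-99a-5p and miR-100-5p. miR-10a-5p (20.1 CPM in WT, 24.9 in TgAD) and miR-10b-5p (8.57 and 4.99) lie far below the relatives at the top of the curve, miR-615-3p and miR-196b-5p lie near 1 CPM or below, and miR-196b-5p has no red symbol because it had no read in TgAD.

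The members of the same family outside the Hox clusters were far more abundant. miR-99a-5p, the most abundant of them, had 327392, 458630, 744331 and 1530240 reads. The 5p arms of miR-10a, miR-10b, miR-99a, miR-99b and miR-100 together took 18.7%, 20.8%, 30.4% and 35.6% of the reads of a library. Of these family reads, the miR-10 arms made up 0.0132%, 0.0182%, 0.01001% and 0.00684%. The family sum was 5499 to 14626 times the miR-10 reads. Of the 6 listed arms of miR-99a, miR-99b and miR-100, all 6 were tested, 1 was called higher in TgAD and 0 lower, against calls in 33.1% of all tested miRNA, and their median log2 fold change was 0.32, against 0.03 over all 496. Without TgAD replicate 1, again 1 was called higher and 0 lower, and the median was 0.38. The arm called higher was miR-99a-5p, with a log2 fold change of 1.13 (adjusted p = 0.0299, edgeR), and 1.26 without TgAD replicate 1 (adjusted p = 0.0521, edgeR). In contrast, miR-99b-5p (0.38, adjusted p = 0.263) and miR-100-5p (0.26, adjusted p = 0.603) did not pass edgeR's quasi-likelihood test, nor did they without TgAD replicate 1 (0.37, adjusted p = 0.339, and 0.39, adjusted p = 0.505).

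TgAD was then compared with WT. With the study's cutoffs, an arm was called where its log2 fold change exceeded 0.6 in size and its adjusted p was under 0.1. The p came from the quasi-likelihood test of edgeR and was adjusted after Benjamini and Hochberg over all tested miRNA. Of the 11 arms, 2 passed the filter on low counts, miR-10a-5p and miR-10b-5p, and 0 of the 2 were called. Over all tested miRNA, 164 of 496 were called, 33.1%. At a log2 fold change over 1 and an adjusted p under 0.01, again 0 of the 2 were called, against 4.44% of all tested miRNA. Without TgAD replicate 1, 143 of 536 miRNA were called at the first cutoffs, 26.7%, and 0 at the stricter ones, which 50 miRNA passed without WT replicate 1 and 54 without WT replicate 2. Neither arm had an unadjusted p under 0.05 in edgeR or in DESeq2 with all 4 libraries. With only 2 arms tested, the count itself says little beside that background.

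miR-10a-5p had 18.3 and 22.0 CPM in WT and 26.6 and 23.1 CPM in TgAD. Both TgAD libraries lay above both WT libraries on this scale, but not in RPM, where TgAD 2 was the lowest of all. The means were 20.1 ± 2.60 CPM in WT and 24.9 ± 2.46 CPM in TgAD (SD, n = 2). With a standard error of 0.275, the log2 fold change of 0.30 did not pass edgeR's test (adjusted p = 0.470). Without TgAD replicate 1, the library with conflicting labels, it was 0.10 (adjusted p = 0.854, edgeR).

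miR-10b-5p had 3.40 and 13.7 CPM in WT and 4.01 and 5.97 CPM in TgAD. The groups overlapped, as both TgAD libraries lay between the WT libraries. The means were 8.57 ± 7.31 CPM in WT and 4.99 ± 1.39 CPM in TgAD (SD, n = 2), and the log2 fold change of -0.79 had a standard error of 0.648 (adjusted p = 0.414, edgeR). This value rested on WT replicate 2. Without that library the sign turned, to a log2 fold change of 0.55 (adjusted p = 0.733, edgeR), whereas without TgAD replicate 1 it was -0.66 (adjusted p = 0.597, edgeR).

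The scaling of the libraries moved these values together with those of all miRNA. With total counts in place of TMM, the median log2 fold change of all tested miRNA shifted from 0.03 to -0.23, and the calls changed from 78 higher and 86 lower to 43 higher and 122 lower. Relative to the median of all tested miRNA, miR-10a-5p was at 0.26 under TMM and 0.28 under total counts, and miR-10b-5p at -0.82 under both.

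**Figure D4:**
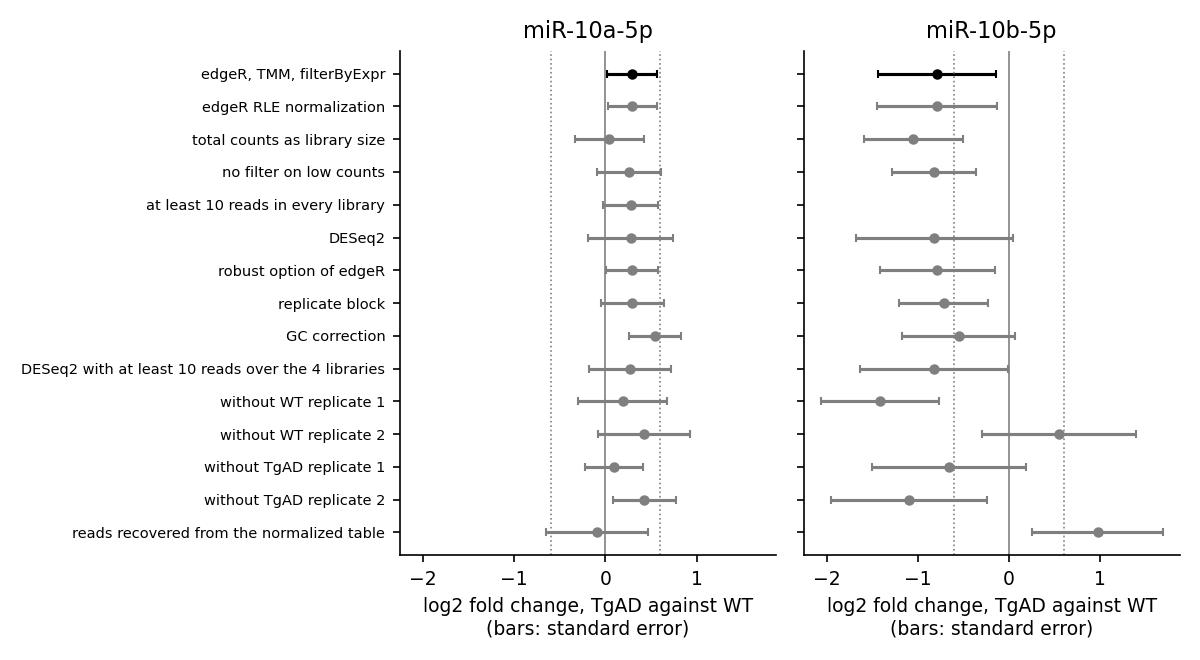
Log2 fold change of TgAD against WT for miR-10a-5p and miR-10b-5p under each setting, points being the fitted values, bars 1 standard error and dotted lines the cutoff of 0.6 in size. The values of miR-10a-5p stay between -0.09 and 0.54, and miR-10b-5p turns positive without WT replicate 2 and with the reads recovered from the normalized table. miR-10b-5p has no value where at least 10 reads were required in every library.

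The 2 paralogs also varied to a different extent between libraries. On log2 CPM, the SD over the 4 libraries was 0.216 for miR-10a-5p and 0.817 for miR-10b-5p, where the median over all tested miRNA was 0.432. Of the tested miRNA, 16.1% had a lower SD than miR-10a-5p and 85.7% a lower SD than miR-10b-5p. Between the WT libraries, miR-10b-5p differed by 1.82 on the log2 scale, more than 99.2% of the tested miRNA did, and miR-10a-5p by 0.26. Between the TgAD libraries, the differences were 0.50 and -0.20, respectively. miR-10b-5p had the fewer reads of the pair.

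Within each library, the share of miR-10a-5p among the reads of both miR-10 5p arms sets the Hoxb paralog against the Hoxd paralog free of library scaling. It was 43 of 51 reads in WT 1, 84.3% (95% Wilson interval 72.0 to 91.8), and 64 of 104 in WT 2, 61.5% (51.9 to 70.3). It was 73 of 84 in TgAD 1, 86.9% (78.1 to 92.5), and 93 of 117 in TgAD 2, 79.5% (71.3 to 85.8). WT 2 was the lowest, and its interval did not overlap those of the other libraries, whose intervals overlapped one another. The mean share was 72.9 ± 16.1% in WT and 83.2 ± 5.25% in TgAD (SD, n = 2). The difference of 10.3 percentage points was smaller than the SD within WT. Its exact two-sided permutation p was 0.667, but 2 against 2 libraries cannot go below 0.333, so this test could not have passed. Without WT replicate 2 the difference was -1.12 points, and without TgAD replicate 1 it was 6.56 points.

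**Figure D5:**
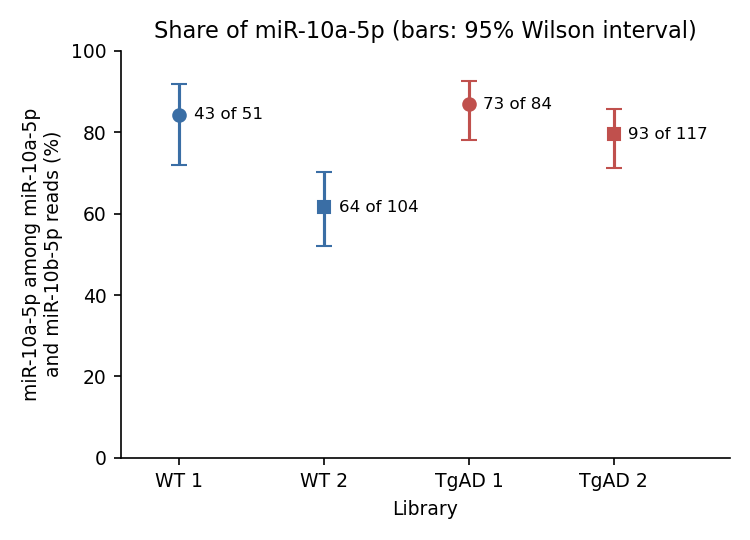
Share of miR-10a-5p among reads of miR-10a-5p and miR-10b-5p in percent, 1 point per library with its 95% Wilson interval. WT 2 is at 61.5%, and the other libraries are between 79.5% and 86.9%.

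By the root mean square difference of log2 CPM centered over the 4 libraries, the tested miRNA nearest in pattern to miR-10a-5p were miR-874-3p (0.0410), miR-140-5p (0.0531) and miR-342-5p (0.0570). miR-874-3p had 112, 156, 178 and 224 reads, miR-140-5p 816, 1106, 1251 and 1664 reads, and miR-342-5p 120, 163, 193 and 233 reads. With 4 points a likeness of this kind is a description only.

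How the counting treated reads with more than one place is not given in the sources used here. Of the listed miRNA, 1675 were found in the RefSeq table. miR-124-3p, miR-143-3p and miR-122-5p were not among them, so their loci and overlaps were not checked. Those whose arm overlaps an arm of another name were at 0 reads in all libraries in 60 of 69 cases (87.0%), whereas those with 1 locus and no such overlap were at 0 in 594 of 1563 cases (38.0%), and those with 2 loci in 19 of 40 cases (47.5%). miR-196a-5p, with 2 loci, is in the last of these groups, and every other Hox cluster arm has 1 locus and no overlapping arm of another name. miR-9-5p, at 3 loci, and miR-126a-3p both overlap an arm of another name. The part of the counting in the 0 of miR-196a-5p was not tested.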

How the data were processed

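Small RNA of 2 WT and 2 TgAD libraries was sequenced in reads of 50 bp. The authors received reads without adapters from the sequencing provider, used Bowtie2 to map reads to GRCm38, allowing no mismatch, and HTSeq to count them on mature miRNA of miRBase 22.1, and the deposited count tables hold these whole counts without normalization. The authors also deposited normalized values, a signal in which the counts of a library are divided by its size factor. All of these values (100%) were whole multiples of 1 read within 0.01, and the recovered reads were used in 1 added alternative, in which edgeR called 0 of 480 miRNA.

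The members and lists were chosen with earlier results of these data known. Named were all arms of the 5 miRNA, selected relatives and cell type markers, and the 3 miRNA nearest in pattern. Counts were fitted in R 4.3.3 with edgeR 4.0.16, which builds on limma 3.58.1, using TMM, filterByExpr, the quasi-likelihood test and a single factor, genotype. The standard error is the size of the log2 fold change over the square root of F. A prior count of 2 was used for log2 CPM. Alternatives were RLE, total counts, no filter, at least 10 reads in every library, DESeq2 1.42.0, edgeR's robust option, a replicate block, a GC correction (span 0.75) and leaving out each library. Added after seeing the data were the recovered reads and DESeq2 for those miRNA whose 4 libraries summed to 10 reads or more. Sequences and loci came from RefSeq (GRCm38) and GENCODE M21. Python 3.11.15, pandas 2.3.3, SciPy 1.17.1 and matplotlib 3.10.9 were used.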

Additional observations from a re-analysis of the deposited data

How the results depend on the processing

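None of the alternatives called a Hox cluster arm. miR-10a-5p kept its sign in 13 alternatives, with log2 fold changes of 0.04 to 0.54 (adjusted p 0.219 to 0.954, edgeR or DESeq2). It turned to -0.0894 (adjusted p = 0.951, edgeR) with the reads recovered from the normalized table. That fit compares other samples, since it counts TgAD replicate 1 as WT, lacks WT replicate 2 and adds the unmatched library to TgAD. miR-10b-5p kept its sign in 11 alternatives, at -1.42 to -0.55. It turned to 0.55 without WT replicate 2 and to 0.97 (adjusted p = 0.640, edgeR) with the recovered reads. It could not be tested with at least 10 reads in every library. Leaving out 1 library gave 0.10 to 0.43 for miR-10a-5p, -1.42 to 0.55 for miR-10b-5p and -1.12 to 21.7 points for the share of miR-10a-5p, the lone library being assumed to vary like the other genotype. The share differed by -12.1 points with the recovered reads. The arms above the minimum fell from 2 to 1 at 10 reads in every library. Among miRNA with a read in any library, the mean percentile was 71.0 in place of 83.3 for miR-10a-5p and 60.7 in place of 77.4 for miR-10b-5p. Without a filter, miR-196b-5p had an unadjusted p of 0.0458 (adjusted p = 0.233, edgeR). Without WT replicate 1, miR-10b-5p had an unadjusted p of 0.0290 (adjusted p = 0.118, edgeR). The cause of these changes was not tested.

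No label ties same-numbered libraries of the genotypes to a shared litter, batch or day. Their deviations from the group means correlated at 0.216 over 496 miRNA, a single value since 2 libraries deviate as mirror images, and pairing was left undecided. With the replicate block, miR-10a-5p was at 0.30, miR-10b-5p at -0.72 and 0 arms were called. Over all tested miRNA, the 164 calls became 188 with the block, 118 to 143 when 1 library was left out, and 0 with the recovered reads. The 22 calls at the stricter cutoffs became 0 with RLE, 2 with the GC correction, 32 with the robust option, 50 at 10 reads in every library, 67 with DESeq2, 86 with total counts, 97 without a filter and 102 with the block. Leaving out 1 library gave 0 (without TgAD replicate 1) to 54 (without WT replicate 2). The depth limits all arms but the miR-10 5p arms to a statement on detection.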

Other observations

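The library in the second TgAD column of the normalized table, which matches none of the count tables, held 25 reads of miR-10a-5p and 12 reads of miR-10b-5p among 1926952 reads, or 13.0 and 6.23 RPM (reads per 1000000 reads of the library). Its miR-10a-5p level was below that of the 4 libraries of the count tables, and its miR-10b-5p level lay between those of TgAD replicate 2 and WT replicate 2.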
